A study of Mus musculus with 6 samples.

Results

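The 10 genes described here are markers and working parts of the fat cell. They were chosen by symbol from the 17854 genes of the expression table: the regulators *Pparg* and *Cebpa*, the lipid-handling genes *Fabp4* and *Lpl*, the hormone genes *Adipoq*, *Lep* and *Retn*, and the lipid droplet genes *Plin1*, *Plin4* and *Cidec*. All 10 are listed in the table, and 7 of them had enough counts to be tested. They were read in 3 libraries of MSC-derived cells and 3 libraries of endogenous cells. MSC-derived cells were Tomato+ cells sorted from the repaired knee cartilage of male C57BL/6 mice in which osteoarthritis had been induced by cutting the anterior cruciate ligament and which had then received mesenchymal stromal cells (MSCs) by injection into the joint. The injected MSCs were Tomato+ cells sorted from inguinal white fat of *Prrx1-Cre; R26tdTomato* mice, and the host mice carried no reporter of their own. There were 3 mice for each group, with the same strain and sex in the labels. Endogenous cells were Tomato+ cells, named articular chondrocytes in the paper, sorted from *Prrx1-Cre; R26tdTomato* mice matched for age and sex. In these mice Cre is made where *Prrx1*, a gene of limb mesenchyme, is active, and the red tdTomato label then stays on in all descendants of those cells. The sort was thus meant to select a lineage and not a cell type. What part of the sorted cells belonged to that lineage was not tested. The hosts were young adults at surgery, and no age at harvest is stated for these samples in the sources used here. The question was whether cells that came from fat still expressed fat genes in the joint. The fat MSCs before injection were not analysed here, so each level is given against endogenous joint cells and not against the starting cells. Surgery, host and injection differed between the groups together with the origin of the cells, and these cannot be told apart.

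Fat cells arise from stromal precursors when PPARγ, a nuclear receptor for fatty acids, and C/EBPα switch each other on and then activate the genes of lipid uptake, lipid storage and hormone secretion. The stored triglyceride lies in droplets coated by perilipins and enlarged by CIDE proteins, and mature fat cells secrete adiponectin, leptin and resistin. Several of these genes are not private to fat: macrophages also express *Pparg*, *Fabp4* and *Lpl*, myeloid cells express *Cebpa*, and stromal cells of the bone marrow that can become fat cells express *Adipoq* and *Lpl*.

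The libraries held 22060628 to 24881796 expected counts, and a count of 3, taken as the floor, corresponded to 0.117 to 0.133 CPM (counts scaled to a library of 1000000 after TMM normalization, with counting error only). Endogenous replicate 1 stood apart: it had 3459 genes at 0, against 1338 and 1395 in the other endogenous libraries, and the chi-square statistic per gene against those libraries was 56.6 and 53.3, compared with 5.30 between replicates 2 and 3 and 3.84 to 4.24 among the MSC-derived libraries. For the 10 genes, *Cidea* and the list counts, results that turn on it are given with and without it. The labels call every sample chondrocyte. Of 10 chondrocyte markers, 10 were lower in the MSC-derived cells, with a summed level of 2410 to 2486 TPM (a scale that corrects for gene length and sums to 1000000 per library) against 26431 to 29668 TPM, and none was at 0. Of 8 osteoblast markers, 8 were lower, with 1352 to 1360 against 60243 to 74795 TPM. Of 16 macrophage markers, 16 were higher in the MSC-derived cells, with 26355 to 27103 against 694.4 to 847.3 TPM, and none was at 0 in all libraries of a group. The 8 general leukocyte markers were all higher as well, with 13014 to 13603 against 461.3 to 643.9 TPM, and 7 of 10 endothelial markers were higher, with 48.1 to 52.8 against 13.8 to 27.7 TPM. Among 8 skeletal muscle markers, of which 4 could be tested, 1 was lower, with summed levels of 8.76 to 10.6 against 50.4 to 53.6 TPM. Calls used edgeR at an adjusted p of at most 0.05, where 31.3% of all 14289 tested genes were higher and 30.3% lower. In bulk samples, fewer cells of a type and less RNA per cell cannot be told apart.

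The 10 genes did not move as a group. *Pparg*, *Cebpa*, *Fabp4* and *Lpl* were higher in the MSC-derived cells, while *Adipoq*, *Plin4* and *Cidec* were lower, and *Lep*, *Retn* and *Plin1* were too low in both groups to be tested. With edgeR's quasi-likelihood test and an adjusted p of at most 0.05, 4 of the 7 tested genes were called higher, where 31.3% of all 14289 tested genes were, and 3 were called lower, where 30.3% of all tested genes were. For each of the 7, the CPM ranges of both groups were apart, which was also so for 72.4% of all tested genes. The fitted changes ran from a log2 fold change of -7.43 to one of 4.05, with a median of 0.85 over the 7 genes and of 0.05 over all tested genes. Throughout, a positive log2 fold change means a higher level in the MSC-derived cells.

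**Figure D1:**
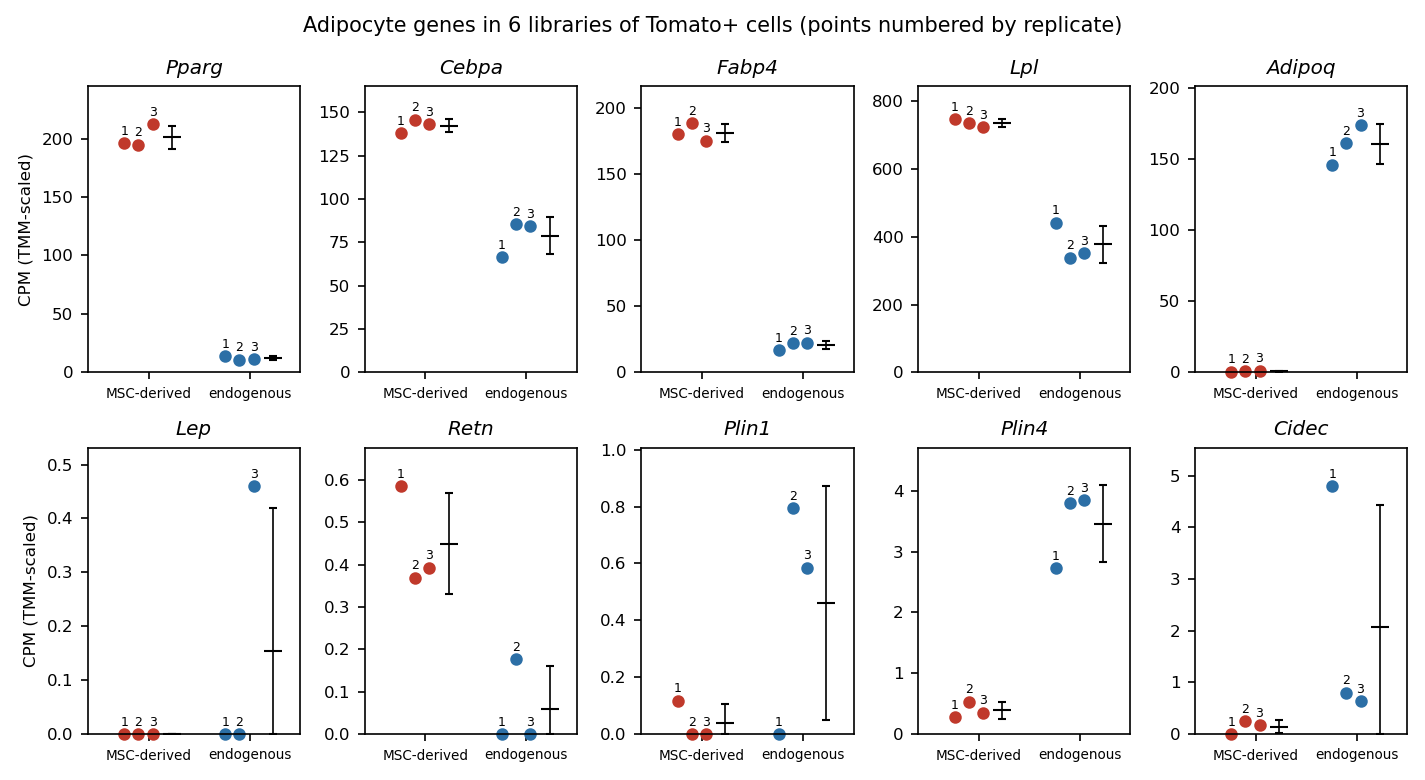
Level of each of the 10 genes in CPM (TMM-scaled counts, linear axes that start at 0) in the 3 MSC-derived libraries (red) and the 3 endogenous libraries (blue), numbered by replicate, with the mean and SD beside them and the lower bar stopped at 0. *Pparg* sits at 194.7 to 212.6 CPM in MSC-derived cells and at 10.9 to 14.0 CPM in endogenous cells, *Adipoq* shows the opposite order, and *Lep*, *Retn* and *Plin1* stay below 1 CPM in every library.

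*Pparg* encodes the nuclear receptor that is required to form and maintain fat cells. It had 195.9, 194.7 and 212.6 CPM in MSC-derived replicates 1 to 3 and 14.0, 10.9 and 11.5 CPM in endogenous replicates 1 to 3. Every MSC-derived library was far above every endogenous one, and the replicates of each group lay close together. The means were 201.0 ± 10.02 and 12.1 ± 1.64 CPM (SD, n = 3 each), a log2 fold change of 4.05 (standard error, SE, 0.12, adjusted p = 1.94e-07 with edgeR), or 16.6-fold. Among all 17854 genes, *Pparg* stood at the 95.4th to 95.7th percentile of TPM in the MSC-derived libraries and at the 58.8th to 65.4th percentile in the endogenous ones.

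*Cebpa* encodes C/EBPα, the partner of PPARγ in fat cells and also a regulator of the myeloid lineage. Its levels were 138.1, 145.7 and 143.2 CPM in the MSC-derived libraries and 66.6, 85.5 and 84.2 CPM in the endogenous libraries. The groups did not overlap, although the endogenous cells also expressed the gene clearly. The log2 fold change was 0.85 (SE 0.11, adjusted p = 0.000362), or 1.81-fold in CPM. In TPM the ratio of the means was 1.34, from 74.6 ± 2.06 and 55.8 ± 3.40 TPM (SD, n = 3 each).

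Since C/EBPα binds DNA at a short element, the 250 bases before the annotated starts of the genes were searched for it. RefSeq promoter sequences (build GRCm38.p6) were found for 8 of the 10 genes, with 11 starts in all, and not for *Fabp4* and *Lpl*. The letters TTGCNNAA, or TTNNGCAA on the other strand, with a stretch that fits both counted once, occurred before 4 of the 11 starts, those of *Pparg*, *Plin1*, *Lep* and *Cidec*, compared with 3142 of 32851 RefSeq promoters (9.56%). The sequences of 4 genes are shown, each written 5′ to 3′ on the strand of the gene and ending at the base before the start, with matches in capitals: a regulator that was higher, a droplet gene and a hormone gene near 0, and the hormone gene with the largest fall.
*Pparg*, most downstream start, chr6:115421816-115422065, + strand: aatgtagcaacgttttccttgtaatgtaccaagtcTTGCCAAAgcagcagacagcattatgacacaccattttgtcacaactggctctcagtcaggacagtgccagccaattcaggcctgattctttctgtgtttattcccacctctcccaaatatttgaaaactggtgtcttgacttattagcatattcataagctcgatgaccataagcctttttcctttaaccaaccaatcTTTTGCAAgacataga
*Plin1*, chr7:79732777-79733026, − strand: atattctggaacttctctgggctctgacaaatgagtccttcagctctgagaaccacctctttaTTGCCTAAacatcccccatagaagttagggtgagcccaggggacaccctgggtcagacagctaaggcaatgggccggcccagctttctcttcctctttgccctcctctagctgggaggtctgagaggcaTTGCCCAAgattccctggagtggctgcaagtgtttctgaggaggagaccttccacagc
*Lep*, chr6:29059971-29060220, + strand: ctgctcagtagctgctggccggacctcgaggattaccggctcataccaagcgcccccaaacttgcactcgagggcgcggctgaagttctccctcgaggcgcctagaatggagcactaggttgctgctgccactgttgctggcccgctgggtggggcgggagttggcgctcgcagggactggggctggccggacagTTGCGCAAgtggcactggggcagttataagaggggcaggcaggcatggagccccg
*Adipoq*, chr16:23146286-23146535, + strand: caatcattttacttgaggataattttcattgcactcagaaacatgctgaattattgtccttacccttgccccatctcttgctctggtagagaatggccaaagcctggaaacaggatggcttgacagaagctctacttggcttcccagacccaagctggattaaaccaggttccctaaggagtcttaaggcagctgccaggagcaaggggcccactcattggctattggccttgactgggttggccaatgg

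The matches began 215 and 16 bases before the most downstream start of *Pparg*, 187 and 58 bases before *Plin1* and 55 bases before *Lep*. In the *Cidec* promoter with a match, it began 198 bases before the start. The window of *Adipoq* held none of these letters, which says nothing about the factor. The letters AGGTCA, or TGACCT on the other strand, the core element of nuclear receptors, occurred before 2 of the 3 starts of *Pparg*, 28 and 9 bases from the start, and before no start of the other 7 genes, compared with 4607 of 32851 promoters (14.0%). Genes with C/EBPα matches thus included *Pparg*, which was higher, *Cidec*, which was called lower, and *Plin1* and *Lep*, which were near the floor. The table gives 1 value per gene, so the starts of *Pparg* cannot be told apart in these data.

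*Fabp4* encodes the fatty acid carrier known as aP2, made in large amounts by fat cells and also by macrophages and endothelial cells. It had 180.0, 188.2 and 175.0 CPM in the MSC-derived libraries and 16.9, 21.9 and 22.5 CPM in the endogenous libraries. All MSC-derived values lay above all endogenous values, and endogenous replicate 1 was the lowest of all. The log2 fold change was 3.15 (SE 0.13, adjusted p = 7.07e-07), or 8.86-fold. Per length, at 473.0 ± 19.8 TPM (SD, n = 3), *Fabp4* was the highest of the 10 genes in the MSC-derived cells, while it ranked below *Adipoq* and *Lpl* in the endogenous cells at 71.5 ± 5.80 TPM (SD, n = 3).

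*Lpl* encodes lipoprotein lipase, which frees fatty acids from circulating triglyceride for uptake. Its levels were 746.4, 734.9 and 722.5 CPM in the MSC-derived libraries and 441.3, 338.8 and 352.0 CPM in the endogenous libraries. The gene was abundant in both groups, without overlap, and endogenous replicate 1 was the closest to the MSC-derived libraries. The log2 fold change was 0.96 (SE 0.11, adjusted p = 0.00015), or 1.95-fold in CPM. On the TPM scale the difference was smaller, 244.2 ± 5.45 against 172.2 ± 40.2 TPM (SD, n = 3 each), a ratio of 1.42.

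*Adipoq* encodes adiponectin, the most abundant hormone of fat cells, and its fitted change was the largest among the 7 tested genes. It had 12, 27 and 28 counts in MSC-derived replicates 1 to 3 and 3311, 3635 and 4153 counts in endogenous replicates 1 to 3. The gene was thus detected above the floor in every library, but with few counts in the MSC-derived cells. The means were 0.934 ± 0.407 and 160.1 ± 14.0 CPM (SD, n = 3 each), a log2 fold change of -7.43 (SE 0.26, adjusted p = 4.09e-07). The endogenous level was 172.4-fold higher in the fit, and in TPM the MSC-derived mean of 1.14 was 0.430% of the endogenous mean of 265.8. *Adipoq* was at the 97.0th to 97.2nd percentile of all genes in the endogenous libraries and at the 29.3rd to 37.7th percentile in the MSC-derived ones.

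The other hormone genes were scarcely detected. *Lep* encodes leptin, the hormone that reports fat stores to the brain. It had 0 counts in all MSC-derived libraries and 0, 0 and 11 counts in the endogenous libraries, so its signal came from endogenous replicate 3 alone. Over the group, 11 counts against the floor of 3 counts gave a ratio of 3.86 in favour of the endogenous cells. The exact 95% counting interval of the ratio begins at 2.64, and both values rest on 1 library. Counting intervals here and below leave out the spread between libraries. *Retn* encodes resistin, a hormone of mouse fat cells. It had 15, 9 and 9 counts in the MSC-derived libraries and 0, 4 and 0 counts in the endogenous libraries. These groups did not overlap, with 33 counts against 4 and a ratio of 7.84 (95% counting interval 2.79 to 30.5), yet the level of 0.450 ± 0.119 CPM (SD, n = 3) in the MSC-derived cells remained low. *Retn* and *Lep* were too low for edgeR's expression filter. With no filter, the adjusted p was 0.121 for *Retn* and 0.165 for *Lep*, and in DESeq2 it was 0.128 and 0.343.

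The 3 droplet genes were low in both groups, with a mean of 3.46 CPM or less. *Plin4* encodes perilipin 4, which coats small new droplets in fat cells. It had 7, 13 and 8 counts in the MSC-derived libraries and 62, 86 and 92 counts in the endogenous libraries. The groups were clearly apart, but both were low, at 0.386 ± 0.133 and 3.46 ± 0.633 CPM (SD, n = 3 each). The log2 fold change was -3.15 (SE 0.47, adjusted p = 0.000765).

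*Plin1* encodes perilipin 1, the main coat protein of droplets in mature fat cells and a gatekeeper of their lipolysis. It had 3, 0 and 0 counts in the MSC-derived libraries and 0, 18 and 14 counts in the endogenous libraries. The groups overlapped because endogenous replicate 1 was at 0. The summed counts of 3 and 32 gave a ratio of 11.2 in favour of the endogenous cells (95% counting interval 3.51 to 57.3). *Plin1* did not pass the expression filter with all 6 libraries, and without the filter its adjusted p was 0.148 in edgeR and 0.192 in DESeq2. Without endogenous replicate 1 it passed the filter and was called lower, with a log2 fold change of -3.96 (adjusted p = 0.000764). It also passed the filter without MSC-derived replicate 1, 2 or 3 and was not called in those fits, with log2 fold changes of -6.44, -2.82 and -2.84 (adjusted p = 0.113, 0.280 and 0.280).

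*Cidec* encodes CIDEC (also called FSP27), which moves lipid between droplets so that large ones form. It had 0, 6 and 4 counts in the MSC-derived libraries and 109, 18 and 15 counts in the endogenous libraries. Here endogenous replicate 1, the library with no *Plin1* count, held most of the signal. The log2 fold change was -3.85 (SE 1.22, adjusted p = 0.0275), and the summed counts of 142 and 10 gave a ratio of 14.9 (95% counting interval 7.89 to 31.8). That interval does not cover the wide spread between the endogenous libraries. Without endogenous replicate 1 the log2 fold change was -2.38 (adjusted p = 0.00949). The call was lost when any 1 of the MSC-derived libraries was left out, with adjusted p values of 0.0728, 0.0677 and 0.0930 without replicates 1, 2 and 3. It was also lost with the replicate number as a block (log2 fold change -3.23, adjusted p = 0.127) and with limma on log2(TPM + 1) (log2 fold change -1.33, adjusted p = 0.0563). *Pparg*, *Cebpa*, *Fabp4*, *Lpl*, *Adipoq* and *Plin4* kept their direction and their call in all 15 alternatives tried.

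**Figure D2:**
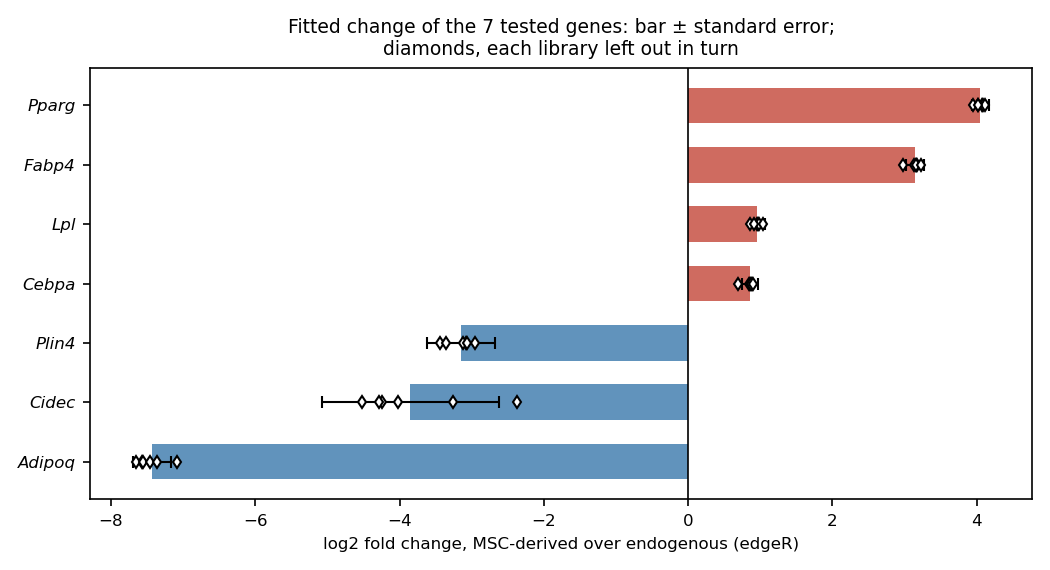
Log2 fold change of the 7 tested genes, MSC-derived over endogenous, from edgeR's quasi-likelihood fit, with the standard error as a black bar and white diamonds for the 6 fits that each leave out 1 library. *Pparg* (4.05), *Fabp4* (3.15), *Lpl* (0.96) and *Cebpa* (0.85) lie right of 0 and *Plin4* (-3.15), *Cidec* (-3.85) and *Adipoq* (-7.43) lie left of it in every fit shown, and the diamonds spread most for *Cidec*.

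Per length, the 10 genes together amounted to 931.2 to 968.3 TPM in the MSC-derived libraries and 545.0 to 622.2 TPM in the endogenous libraries, so the sum was higher in the MSC-derived cells while its make-up differed. In the MSC-derived cells the order of the TPM levels was *Fabp4*, *Lpl*, *Pparg* and *Cebpa*, whose ranges over the libraries did not overlap, followed by the other 6 genes at 1.30 TPM or less. *Fabp4* alone made up 49.7% ± 1.12 of the sum (SD, n = 3), *Lpl* 25.7% ± 0.404 and *Pparg* 16.4% ± 1.02, whereas *Adipoq* made up 0.120% ± 0.0525. In the endogenous cells the order was *Adipoq*, *Lpl*, *Fabp4*, *Cebpa* and *Pparg*, again without overlap between neighbours, followed by *Cidec*, *Plin4*, *Plin1*, *Retn* and *Lep* at 2.52 TPM or less. Among these low genes, *Retn* and *Adipoq* could not be ordered in the MSC-derived cells, while *Cidec* overlapped *Plin4*, *Plin1* and *Lep*, *Plin1* also overlapped *Plin4* and *Lep*, and in the endogenous cells each of the 5 low genes overlapped its neighbour in the order. *Adipoq* made up 45.8% ± 2.96 of the endogenous sum (SD, n = 3) and *Pparg* 2.04% ± 0.429. Within single libraries, the ratio of *Adipoq* to *Pparg* in TPM was 0.00380 to 0.00909 in the MSC-derived cells and 16.8 to 26.7 in the endogenous cells.

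The paralogs of the droplet and carrier genes showed which family member each group used. Among the 5 perilipins, the summed level was 271.3 ± 6.24 TPM in the MSC-derived cells and 74.6 ± 3.19 TPM in the endogenous cells (SD, n = 3 each). *Plin2*, the perilipin that coats droplets in most cell types, lipid-loaded macrophages included, made up 86.1% ± 0.833 of the perilipin sum in the MSC-derived cells and 53.1% ± 3.05 in the endogenous cells, and its log2 fold change was 2.996 (SE 0.10, adjusted p = 3.34e-07). *Plin3*, a perilipin of most tissues, made up 13.7% and 44.8%, with a log2 fold change of 0.59 (adjusted p = 0.00458). The fat cell perilipins *Plin1* and *Plin4* made up 0.0109% and 0.0309% of the sum in the MSC-derived cells, and 0.601% and 1.27% in the endogenous cells. *Plin5*, a perilipin of heart and other oxidative tissues, ranged from 4 to 27 counts in MSC-derived and from 0 to 9 counts in endogenous libraries and was not tested. *Plin2* thus had the largest share in all 6 libraries, with *Plin3* close behind it in endogenous replicate 2 (49.7% and 47.4%), and the fat cell members were minor in both groups.

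Among the CIDE genes, *Cidea*, known from brown fat and also made in white fat, had 0 counts in all 3 MSC-derived libraries and 116, 28 and 27 counts in the endogenous libraries. With the floor of 3 counts in place of 0 over the group, *Cidea* was 60.0-fold lower in the MSC-derived cells, a bound set by the floor. It was called lower by edgeR (adjusted p = 0.00375). As with *Cidec*, most of its counts came from endogenous replicate 1. Without that library the same bound for *Cidea* was 28.7-fold (55 counts, edgeR adjusted p = 5.38e-06). *Cideb*, the liver member of the family, had 3.04 to 8.38 and 5.23 to 11.7 counts and was not tested. Among the fatty acid binding proteins, whose sum was 626.7 ± 28.5 TPM in the MSC-derived cells and 113.2 ± 15.8 TPM in the endogenous cells (SD, n = 3 each), *Fabp4* made up 75.5% ± 0.318 and 63.5% ± 3.96. *Fabp5*, the carrier of skin and macrophages, made up 23.5% ± 0.419 and 16.4% ± 4.57, and its log2 fold change was 3.48 (adjusted p = 2.14e-07), although near-identical copies of *Fabp5* make its counts uncertain. *Fabp3*, the heart and muscle carrier, made up 0.766% ± 0.0970 in the MSC-derived cells and 18.9% ± 7.22 in the endogenous cells. With 3 libraries against 3, an exact permutation test of such shares cannot give a p below 0.10, so they are given as values.

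**Figure D3:**
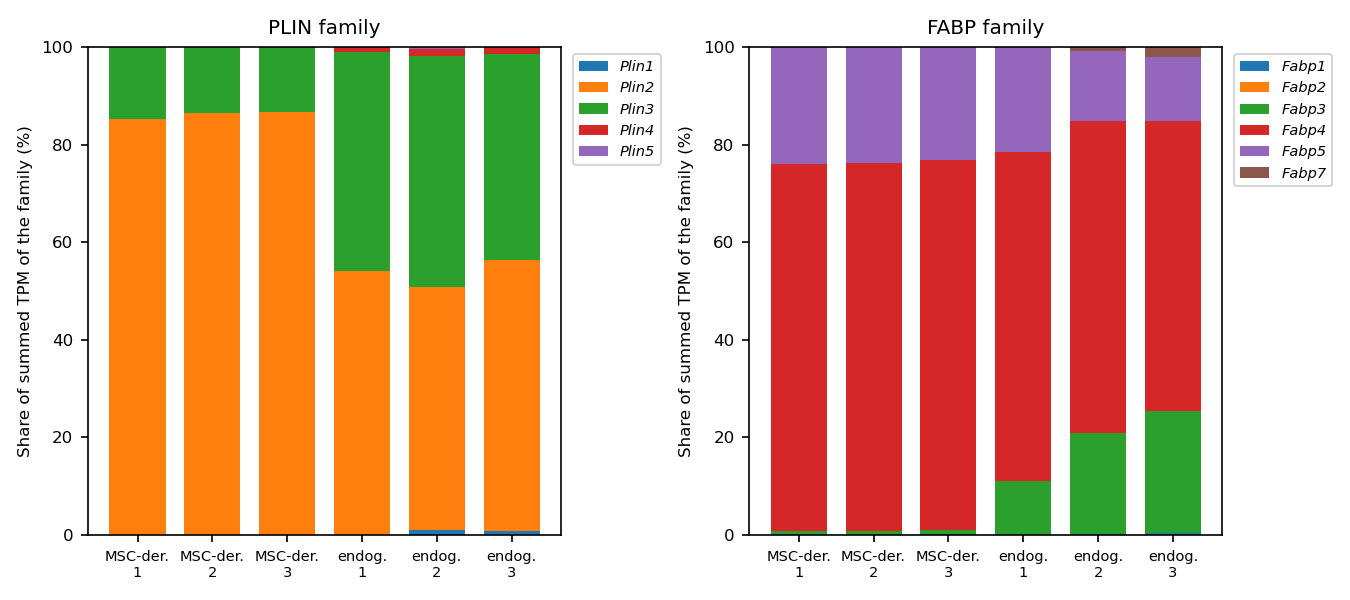
Share (%) of the summed TPM of the perilipin family (left) and of the fatty acid binding protein family (right) taken by each member in each of the 6 libraries, with 1 stacked bar per library. *Plin2* takes 85.2% to 86.7% of the perilipin bars of the MSC-derived cells and 49.7% to 55.6% of the endogenous ones, *Plin1* and *Plin4* are thin slices throughout, and *Fabp4* is the largest slice of the right panel in all 6 libraries.

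Macrophage genes were higher in the MSC-derived cells, as were the 8 general leukocyte markers. These libraries give only the group difference, so genes with like changes cannot be linked by pattern. In the MSC-derived cells *Adgre1*, which encodes the macrophage marker F4/80, had 18190 to 19461 counts, against 7 to 106 in the endogenous cells, with a log2 fold change of 8.34 (adjusted p = 1.17e-05). A list of 12 genes of lipid handling in macrophages had 12 called higher and 0 called lower, against 31.3% and 30.3% of all tested genes. Its median log2 fold change was 2.96, and 4 of its genes (*Cd36*, *Plin2*, *Fabp5* and *Nr1h3*) also stand in the fat lists. *Trem2*, a lipid receptor of macrophages, rose by 8.18 and *Abcg1*, a cholesterol exporter, by 4.71 in log2 (adjusted p = 6.77e-06 and 7.93e-08). Whether these cells account for part of the *Pparg*, *Fabp4*, *Lpl* and *Cebpa* levels was not tested.

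Marrow stromal genes were mostly lower in the MSC-derived cells, as were all 8 osteoblast and all 10 chondrocyte markers. Over all tested genes, 30.3% were called lower and 31.3% higher. Of 11 genes of the bone marrow stromal cells that can form fat cells, 10 were lower in the MSC-derived cells and 1 was higher, with a median log2 fold change of -4.35. *Lepr*, the leptin receptor that marks these cells, had 99.4 to 126.6 counts against 6264 to 8512 counts, a log2 fold change of -6.02 (adjusted p = 1.42e-07). *Cxcl12*, their main chemokine, had a log2 fold change of -5.12 (adjusted p = 1.97e-08) and *Grem1*, a BMP antagonist, of -6.55 (adjusted p = 5.18e-06). The 1 higher gene was *Vcam1* (log2 fold change 3.90, adjusted p = 2.98e-08), an adhesion molecule that some macrophages also make. The part of marrow stromal cells in the endogenous *Adipoq* level was not tested.

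Other genes of the fat cell program were read from lists of known function. Of all 14289 tested genes, 31.3% were called higher and 30.3% lower. The share called higher was below 31.3% for the regulators, the adipokines and the mature fat cell, brown and beige, and progenitor genes. The share called lower was below 30.3% for the droplet and uptake genes. In the opposite direction each of these lists exceeded the share of all tested genes. Whether a list differed from these shares was not tested. Of 20 other regulators of fat cell formation, 5 were higher, 9 were lower and 6 were not called, with a median log2 fold change of -0.69. *Cebpb* and *Cebpd*, the early partners that act before *Cebpa*, moved apart, with log2 fold changes of 0.80 (adjusted p = 0.00016) and -1.36 (adjusted p = 5.08e-05). The largest increases were those of *Nr1h3*, the sterol receptor LXRα of macrophages, liver and fat (3.90, adjusted p = 4.31e-05), and of *Klf15*, a late factor of fat cell formation (1.16, adjusted p = 0.00324). The largest decreases were those of *Bmp4*, a growth factor that commits stromal cells to fat (-3.20, adjusted p = 1.43e-05), and *Wnt10b*, an inhibitor of fat cell formation (-2.81, adjusted p = 0.00755). *Dlk1*, the preadipocyte marker Pref-1, had 6 to 14 counts in the MSC-derived and 0 to 25 counts in the endogenous libraries and was not called (log2 fold change -0.64, standard error 1.12, adjusted p = 0.638).

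Of 11 other adipokine genes, 3 were higher, 6 were lower and 2 were not called, with a median of -0.52. Their summed level was higher in the MSC-derived libraries, at 3254 to 3416 TPM against 1232 to 1384 TPM in the endogenous ones. *Cfd*, which encodes the fat-derived complement factor adipsin, had 2, 1 and 12 counts in the MSC-derived libraries and 127, 222 and 188 counts in the endogenous libraries. Like *Adipoq*, it had few counts in the MSC-derived cells (log2 fold change -5.17, SE 0.79, adjusted p = 0.000879). The largest decreases of the list were those of *Sfrp5*, a secreted Wnt inhibitor of fat, with 0 to 13 against 1805 to 1990 counts (log2 fold change -8.40, adjusted p = 5.08e-06), and *Agt*, angiotensinogen (-5.57, adjusted p = 7.89e-08). The largest increases were those of *Lcn2*, lipocalin 2, which neutrophils and macrophages also make (4.21, adjusted p = 3.55e-06), and *Angptl4*, an inhibitor of lipoprotein lipase (1.17, adjusted p = 0.000168).

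Of 16 droplet coat and lipolysis genes, 13 were tested, with 8 higher, 3 lower and a median log2 fold change of 0.59. *G0s2*, an inhibitor of the lipase ATGL, rose by 3.17 (adjusted p = 1.19e-05), *Pnpla2*, which encodes ATGL, by 1.32 (adjusted p = 1.85e-05), and *Lipe*, hormone-sensitive lipase, by 1.33 (adjusted p = 0.000228) on the log2 scale. The lower genes were *Cidea*, *Pnpla3* (-2.67, adjusted p = 0.00208) and *Fitm2* (-1.14, adjusted p = 0.00724). Of 21 genes of lipid uptake and triglyceride synthesis, 20 were tested, with 11 higher, 5 lower and a median of 0.77. *Mogat2*, an acyltransferase of triglyceride synthesis, rose by 4.22 (adjusted p = 0.00293) and *Cd36*, a fatty acid transporter of fat cells and macrophages, by 2.93 (adjusted p = 3.54e-05), whereas *Irs1*, an adapter of the insulin receptor, fell by 4.18 (adjusted p = 7.37e-06) and *Vldlr*, a lipoprotein receptor, by 2.16 (adjusted p = 1.42e-05). Among the higher genes of these lists, *Plin2*, *Cd36* and *Fabp5* also stand in the macrophage lipid list. Which cells the higher levels came from was not tested.

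Other genes typical of the mature fat cell were mostly lower. Of 19 listed genes, 18 were tested, with 2 higher, 14 lower and a median log2 fold change of -1.81. *Car3*, carbonic anhydrase 3, ranged from 22 to 35 counts in MSC-derived libraries and from 9383 to 9978 counts in the endogenous libraries (log2 fold change -8.57, adjusted p = 3.39e-08). *Adrb3*, the β3-adrenergic receptor of fat cells, had 0 counts in all MSC-derived libraries and 28, 22 and 37 counts in the endogenous ones. With the floor in place of 0 over the group, the bound on this difference was 30.5-fold (edgeR adjusted p = 0.00152). The higher genes were *Orm1*, an acute-phase protein with near-identical copies that make its counts uncertain (4.44, adjusted p = 7.59e-05), and *Hcar2*, a receptor of fat cells and macrophages that restrains lipolysis (2.15, adjusted p = 1.46e-05). Of 11 brown and beige fat genes, 5 were tested, with 1 higher and 4 lower. Their summed level went the other way, with 47.8 to 49.4 TPM in the MSC-derived and 17.6 to 31.2 TPM in the endogenous libraries. *Cidea* and *Ppara*, a receptor that drives fatty acid oxidation (-4.17, adjusted p = 0.00536), fell most, and *Tmem26*, a beige cell surface marker, rose by 5.41 (adjusted p = 3.94e-05). *Ucp1*, which encodes the uncoupling protein that defines brown and beige fat cells, had 4, 8 and 3 counts in MSC-derived replicates 1 to 3, was at 0 in all endogenous libraries and was not tested.

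The injected cells were stromal cells of fat, so the genes of fat progenitors were read as well. Of 18 such genes, 17 were tested, with 3 higher, 10 lower and 4 not called, and a median log2 fold change of -1.30. The largest increases were those of *Pi16*, a marker of early progenitors (1.69, adjusted p = 5.36e-06), and *Cd55* (1.05, adjusted p = 0.00052), and the largest decreases were those of *Bmp7*, a growth factor (-5.69, adjusted p = 8.28e-06), and *F3*, tissue factor (-4.95, adjusted p = 6.52e-08). *Pdgfra*, the receptor used to sort fat progenitors, was lower as well (-2.38, adjusted p = 1.23e-05). Many of these genes are also expressed by joint and marrow stroma.

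**Figure D4:**
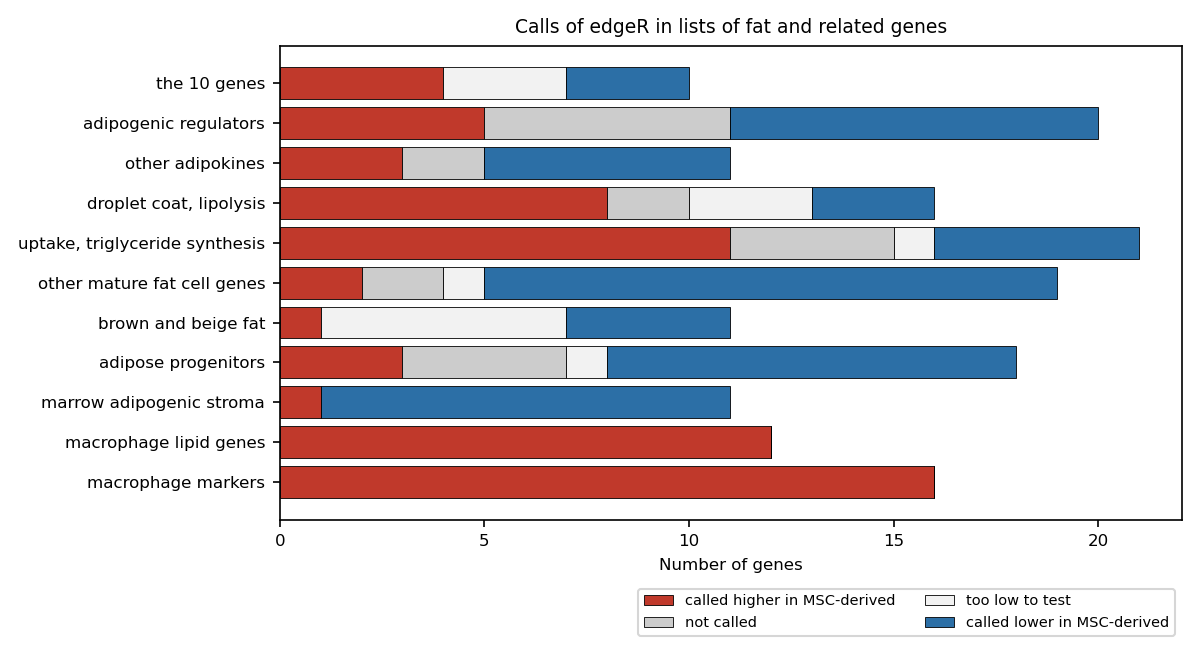
Number of genes called higher (red) or lower (blue) in the MSC-derived cells, not called (grey) or too low to test (pale) in the 10 genes and in 10 lists of fat and macrophage genes, with edgeR at an adjusted p of at most 0.05. The 10 genes split into 4 higher, 3 lower and 3 too low, the mature fat cell list is mostly blue (14 of 19 genes), and the macrophage bars are wholly red (16 of 16 markers and 12 of 12 lipid genes). Over all tested genes, 31.3% were called higher and 30.3% lower.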

How the data were processed

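Bulk RNA was sequenced from Tomato+ cells of 3 MSC-derived and 3 endogenous samples, grouped by the treatment and names in the labels. After filtering (SOAPnuke) and alignment (HISAT2, Bowtie2), the authors deposited expected counts per gene from RSEM, not normalized. The submitters' processing notes name mm9, Bowtie2 2.2.5 and RSEM 1.2.12. Whether counting used strand is not given in the sources used here. The authors also deposited TPM, FPKM (not used for results) and a normalized signal that equals the rounded-up count times 1 factor per library. Columns of group averages (8) were left out, and 0 sample columns stayed unmapped.

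Expected counts were rounded to whole numbers (20.6% were not whole) and tested over all genes with edgeR 4.0.16 in R 4.3.3 (TMM, filterByExpr, glmQLFit, glmQLFTest, no block), adjusting p by Benjamini-Hochberg across 14289 tested genes, threshold 0.05. Depth was 22060628 to 24881796 counts per library. Intervals are exact 95% counting intervals and cover counting error only. Alternatives were DESeq2 1.42.0, voom with group weights and limma 3.58.1 on log2(TPM + 1) and log2(TPM + 0.1), other scalings, no filter, a replicate block, each library left out, and a threshold of 0.001. The test was tried first on data simulated with the same spread in both groups, unlike the real libraries. Their biological coefficient of variation, the spread between replicates, was 35.1% in the endogenous and 6.78% in the MSC-derived group.

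All 10 genes are named. Each list was counted in full. The 2 largest called increases and decreases are named for the 7 fat lists and the macrophage lipid list, with *Plin2*, *Plin3*, *Plin5*, *Cidea*, *Cideb*, *Fabp5*, *Pnpla2*, *Lipe*, *Cd36*, *Cfd*, *Cebpb*, *Cebpd* and *Dlk1*. *Fabp3*, *Fitm2*, *Ucp1*, *Pdgfra* and the named macrophage and marrow stroma genes were chosen after their values were seen. The genes and lists were chosen with earlier results of these data known. Promoters are RefSeq sequences of GRCm38.p6, another build than that of the counts, and were matched by symbol. Figures were drawn with matplotlib 3.10.9.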

Additional observations from a re-analysis of the deposited data

How the results depend on the processing

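The numbers of genes called were 4 higher in all 15 alternatives, and 2 to 4 lower. The paired analysis with the replicate number as a block (replicate block) gave 2 lower genes in place of 3, and the log2 fold change of *Cidec* was then -3.23 (adjusted p = 0.127). Same-numbered samples are different mice, and their deviations correlated at 0.0129, 0.00221 and 0.0178, so the numbers do not pair the samples. Leaving out 1 library gave 2 to 4 lower genes, 2 without any 1 MSC-derived library, where *Cidec* was lost, and 4 without endogenous replicate 1, where *Plin1* was gained. The threshold of 0.001 and limma on log2(TPM + 1) each left 2. The log2 fold changes over all alternatives ran from 3.63 to 4.11 for *Pparg*, 2.71 to 3.22 for *Fabp4*, 0.53 to 1.03 for *Lpl*, 0.41 to 0.91 for *Cebpa*, -7.83 to -6.99 for *Adipoq*, -3.44 to -0.85 for *Plin4* and -4.51 to -1.33 for *Cidec*. The values nearest 0 come from the TPM scale, where the median of all genes moved to -0.34 or -0.28 from 0.05 and the pseudocount shrinks low genes. No fold change reversed. Of 450 list counts under alternatives, 434 stayed within 1.5 times and 16 did not. At the threshold of 0.001 the higher counts were 2 for the regulators, 5 for droplet genes, 6 for uptake genes and 1 for endothelial markers, and the lower counts were 0 for droplet genes, 3 for uptake genes, 9 for mature fat cell genes and 1 for brown and beige genes. With limma on TPM the regulators had 3 higher and endothelial markers 4 under both pseudocounts, and droplet genes 5 with log2(TPM + 0.1). Without a filter 2 brown and beige genes were higher, and without endogenous replicate 1 the muscle markers had 1 higher and 2 lower. That last fit also moved other lists, within 1.5 times. The regulators then had 7 higher and 12 lower, and endothelial markers had 9 higher. Fat progenitor genes had 12 lower and mature fat cell genes 15 lower. The shares of all genes called under these alternatives are not given here. A change in a list count therefore cannot be read as particular to that list. *Lep*, *Retn*, *Plin1*, *Plin4* and *Cidec* had 15 counts or fewer in each MSC-derived library, and depth itself was not varied.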
